A study of Homo sapiens with 24 samples.

Results

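The genes described here are 36 human genes of protein folding, oxidation, translocation, degradation and stress signalling in the endoplasmic reticulum (ER). They form a list given by name, of ER chaperones and genes of the unfolded protein response, and all 36 were found by symbol among the 57992 genes of the count tables. Their RNA and ribosome footprints were followed in K562, an established human chronic myelogenous leukemia line with erythroid features, in which the RNA helicase DDX3X was silenced by CRISPR interference (CRISPRi), a method in which a Cas9 without cutting activity represses a promoter. Cells carried either the guide sgDDX3 or the control guide sgGal4, named for the yeast transcription factor Gal4, and were sampled at day 0, day 3 and day 14. Each of the 6 combinations of guide and day gave 2 libraries of RNA from cytosolic lysate and 2 libraries of ribosome footprints, the stretches of mRNA that ribosomes protect from nuclease. That makes 24 libraries in 12 groups. The labels give 50 ng/ml doxycycline, which induces the knockdown, for every sample, day 0 included, and do not say whether day 0 cells had received it. Nor is it stated whether replicate libraries, 2 in each group, came from different cultures, and p-values therefore measure a spread between libraries that may be technical. A single cell line was used, so the values describe that line.

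The ER folds proteins that enter it through the Sec61 translocon, with the help of Hsp70 and Hsp90 chaperones, lectin chaperones that bind sugar chains, and protein disulfide isomerases. Proteins that do not fold are sent back to the cytosol for destruction by ER-associated degradation (ERAD). When unfolded proteins accumulate, the sensors IRE1 (encoded by ERN1), ATF6 and PERK start the unfolded protein response: IRE1 splices the XBP1 mRNA so that it encodes an active transcription factor, ATF6 is cleaved to release another, and PERK slows translation while raising ATF4. XBP1 and ATF6 act on the promoters of chaperone and ERAD genes through short elements, among them the ER stress response elements ERSE and ERSE-II and the unfolded protein response element (UPRE).

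These elements were looked for in RefSeq promoter windows (GRCh38.p14) of 250 bases before to 50 bases after each annotated start, on both strands. The table held windows for 33 of the 36 members. ERSE was searched as CCAAT, 9 bases of any kind and CCACG. It was in the windows of 8 of the 33 members (24.2%), against 25 of all 27305 genes of the table (0.0916%). ERSE-II, searched as ATTGG, 1 base of any kind and CCACG, was in 3 members (9.09%) and in 19 genes overall (0.0696%). The UPRE core TGACGTG was in 3 members (9.09%), DNAJC10, HYOU1 and SEC61A1, and in 654 genes overall; in HYOU1 it overlaps an ERSE-II. Several members are the genes in which such elements were defined, so these shares describe the list. The plot of motif positions shows where the matches lie.

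**Figure D1:**
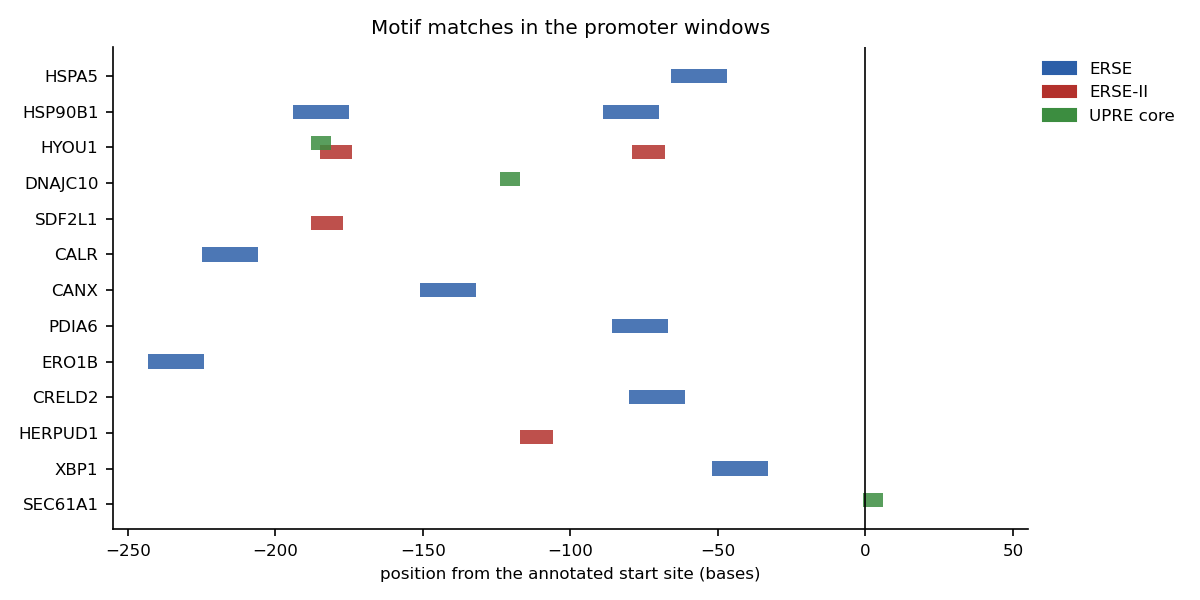
Positions of ERSE, ERSE-II and UPRE core matches in the promoter windows of the 13 members that hold any, in bases from the annotated start site (x axis; 250 before to 50 after), with 1 row a gene. The matches in HSP90B1 and HYOU1 are double, and all ERSE and ERSE-II matches lie before the start.

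The ERSE and ERSE-II matches of members that passed between the guides in RNA or footprints at day 3 or day 14 are printed here, 5′ to 3′ on the strand that carries the motif as spelled, with the fixed letters of the motif in capitals and flanking bases in lower case. ERO1B, which also passed, is left out because its counts were low. Motif positions are in bases from the annotated start.
HSPA5 ERSE (chr9:125241383-125241417, - strand, motif from -66 to -48): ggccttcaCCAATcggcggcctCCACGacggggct
HSP90B1 ERSE (chr12:103930208-103930242, + strand, motif from -194 to -176): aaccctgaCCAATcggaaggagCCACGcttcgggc
HSP90B1 ERSE (chr12:103930313-103930347, - strand, motif from -89 to -71): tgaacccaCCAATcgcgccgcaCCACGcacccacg
CALR ERSE (chr19:12938376-12938410, - strand, motif from -225 to -207): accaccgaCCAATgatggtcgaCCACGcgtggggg
CRELD2 ERSE (chr22:49918546-49918580, - strand, motif from -80 to -62): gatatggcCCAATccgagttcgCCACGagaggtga
XBP1 ERSE (chr22:28800595-28800629, - strand, motif from -52 to -34): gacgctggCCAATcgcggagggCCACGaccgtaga
HYOU1 ERSE-II (chr11:119057372-119057398, + strand, motif from -185 to -175): ggcctgggATTGGaCCACGtcacgggg
HYOU1 ERSE-II (chr11:119057266-119057292, + strand, motif from -79 to -69): gcgtactcATTGGaCCACGtcccaggc
SDF2L1 ERSE-II (chr22:21642106-21642132, - strand, motif from -188 to -178): gggttttgATTGGtCCACGcttccgag

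The letters between the fixed blocks of the ERSE differ from gene to gene; their number is fixed by the search. The remaining ERSE and ERSE-II matches were in PDIA6, CANX, ERO1B and HERPUD1.

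Total counts ran from 10266619 to 43256563 over the RNA libraries and from 6223963 to 15240512 over those of footprints. Values are given below as CPM, read counts relative to library size (per 1e+06 counts) after scaling by edgeR's trimmed-mean factors, and are compared only between libraries, never between genes. DDX3X RNA was 175 and 185 CPM with sgDDX3 and 215 and 203 CPM with sgGal4 at day 0, 39.0 and 33.7 CPM with sgDDX3 and 185 and 174 CPM with sgGal4 at day 3, and 134 and 101 CPM with sgDDX3 and 201 and 187 CPM with sgGal4 at day 14. The knockdown was thus deep at day 3 (log2 difference -2.29 ± 0.11, SE, adjusted p = 1.6e-11) and smaller at day 14 (-0.72 ± 0.10, SE, adjusted p = 4.03e-05). Of 9 markers of K562 and erythroid cells, 8 were present in RNA (GATA1 at a median of 176 CPM); HBG1, nearly identical in sequence to HBG2, was at 0 to 0.288 CPM. Among markers of other cell types, MS4A1 and KRT5 were at 0 in every RNA library, while EPCAM had a median of 29.0 CPM. A count of 0 in a library of median depth allows up to 0.207 CPM in RNA and 0.316 CPM in footprints, counting error only.

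After the knockdown, RNA of several chaperones and disulfide enzymes of the list was higher with sgDDX3 and RNA of the transcription factor gene XBP1 and the ERAD gene DERL3 was lower. At day 14, 10 members had higher RNA with sgDDX3 (ERO1B, CRELD1, PDIA4, HYOU1, OS9, HSP90B1, DNAJC3, PDIA3, CALR and CRELD2) and 2 had lower RNA (XBP1 and DERL3). At day 3, 3 members were higher (HYOU1, CRELD2 and SEC61A1) and 3 lower (DNAJB11, DERL3 and XBP1). HYOU1, CRELD2, DERL3 and XBP1 passed on both days, each in the same direction. Apart from ERO1B, whose counts were low, these RNA differences reached at most 1.33-fold higher (HYOU1, day 3) and 1.77-fold lower (DERL3, day 3). The libraries come from bulk lysates, so fewer cells with an RNA and less of it per cell cannot be told apart.

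The tests were edgeR's quasi-likelihood F-test across all genes with Benjamini-Hochberg adjustment, and a gene passed at an adjusted p under 0.05. Of the 36 members, 35 could be tested in RNA and 34 in footprints and in translational efficiency, the footprints relative to RNA. The count filter removed WFS1, an ER membrane protein, from all of them: its RNA counts were 0 to 3, with 8 of 12 libraries at 0. At day 0 no member passed in RNA (0 of 35, with 0.00547% of all genes passing), footprints (0 of 34, 0.0101%) or translational efficiency (0 of 34, 0.00673%). At unadjusted p under 0.05 the day 0 counts of members were 2, 1 and 0. Over all genes they were 832 of 18287, 960 of 19780 and 392 of 14853. DESeq2 called 0 members in each.

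Against the whole table, the day 3 counts in RNA were 3 of 35 members higher, where 7.68% of all genes were higher, and 3 lower, where 6.39% were lower. These shares are near the background. At day 14, 10 of 35 were higher, against 8.44% of all genes, and 2 lower, against 6.18%. The median log2 difference of the members was 0.10 at day 3 and 0.09 at day 14, and -0.01 on both days for all genes tested. At day 14, 22 of the 35 had a positive difference, and 22 reached an unadjusted p under 0.05. Over all genes tested, 5037 of 18287 reached such a p at day 14.

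The day 14 count depended on single libraries. It was 7 without sgDDX3 replicate 1, 17 without sgDDX3 replicate 2, 5 without sgGal4 replicate 1 and 2 without sgGal4 replicate 2. Without the low-count filter it was 9, of which 4 were higher and 5 lower (ATF6, HERPUD1, ERN1, DERL3 and XBP1). The split between directions thus also moved, and it moved over all genes as well. Those passing went from 1543 higher and 1131 lower with the filter to 1280 higher and 1379 lower without it. At day 3 the count was 6, 4, 5 and 3 in the same order of omitted libraries. For some genes the 2 sgDDX3 RNA libraries of day 14 stood apart from each other. HERPUD1 was 45.0 and 63.4 CPM, XBP1 126 and 146 CPM, ATF6 71.4 and 87.7 CPM and DDX3X 134 and 101 CPM in replicates 1 and 2. Other members were closer, such as HSPA5 at 242 and 229.8 CPM and OS9 at 136 and 132 CPM. The counts without either of these libraries are those given above. The plot of guide differences by role shows every member.

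**Figure D2:**
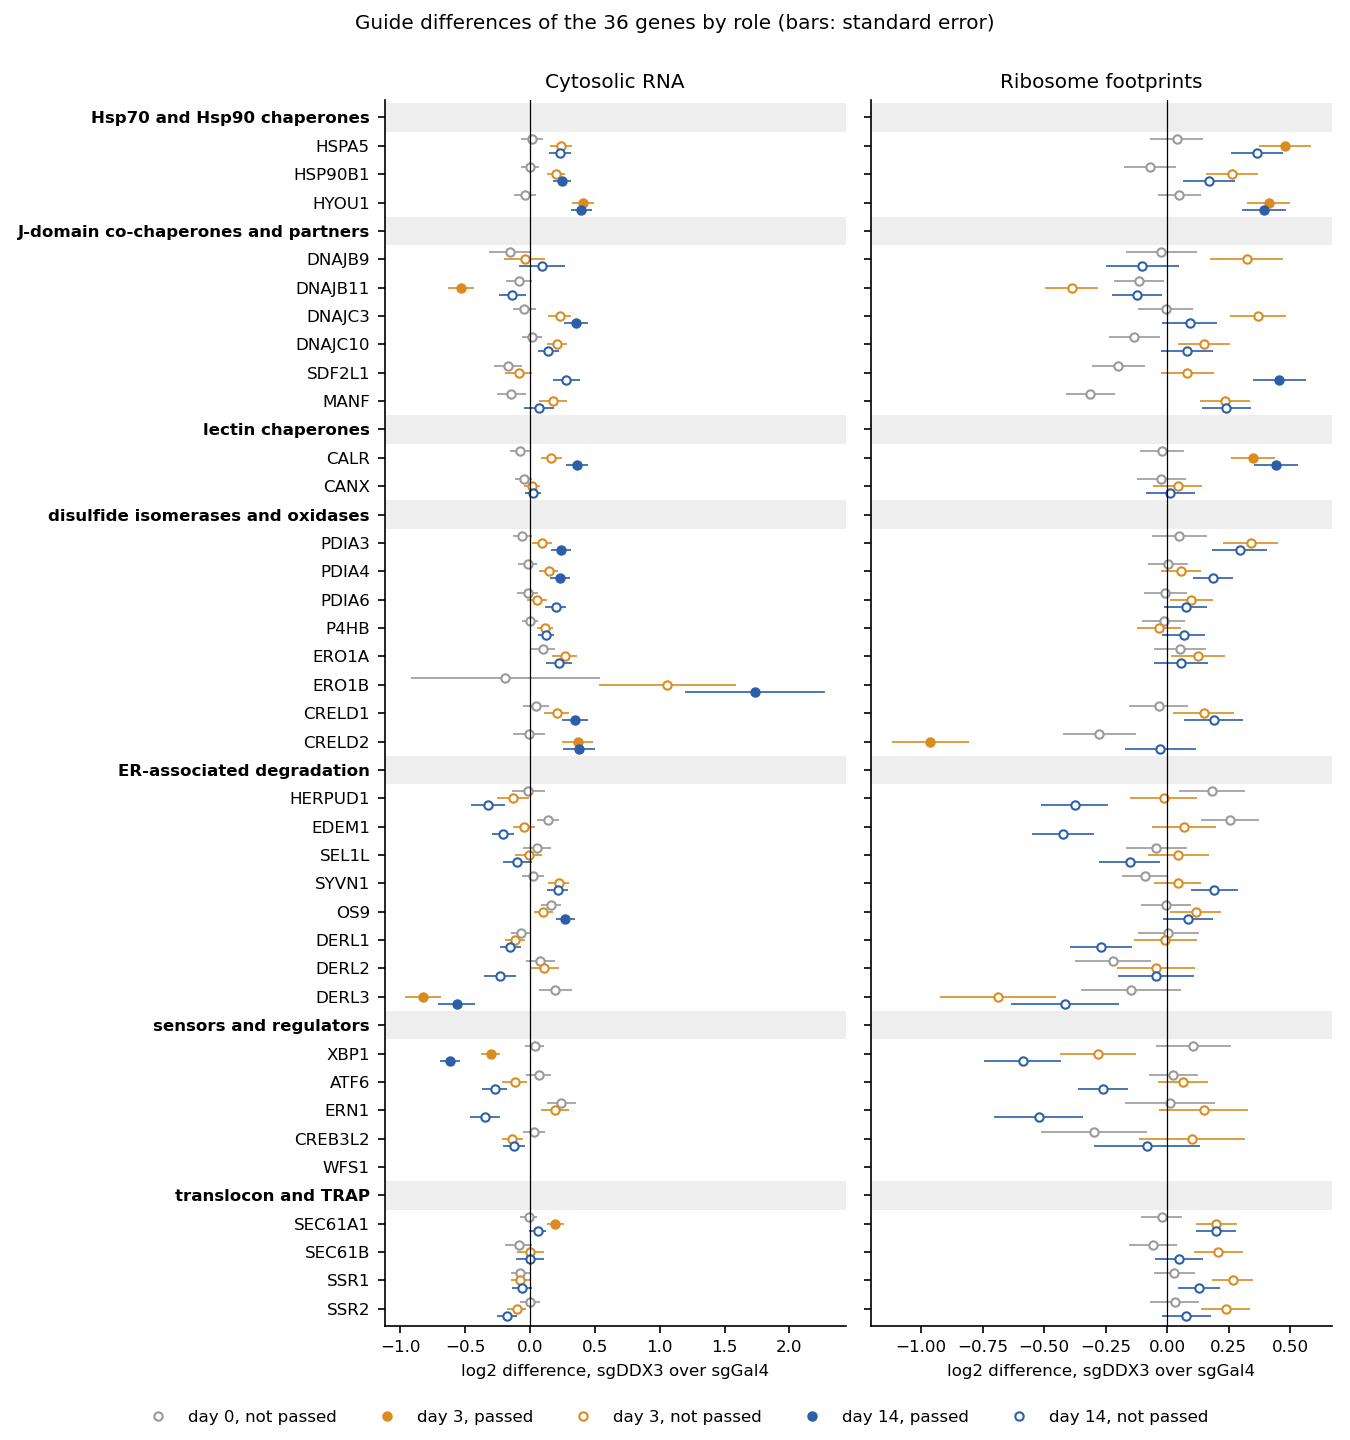
Log2 difference of sgDDX3 over sgGal4 (x axis) for each member (rows, grouped by role) in RNA and footprints at days 0, 3 and 14; bars are standard errors and filled points passed at an adjusted p under 0.05. At day 14 in RNA, 10 filled points lie to the right of 0 and 2, XBP1 and DERL3, to the left.

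Of the Hsp70 and Hsp90 chaperones, HYOU1, a large ER relative of Hsp70 (ENSG00000149428, chr11:119044188-119057205), was higher in RNA and footprints on both days. Its RNA was 222 and 241 CPM with sgDDX3 and 182 and 165 CPM with sgGal4 at day 3, and 268 and 223 CPM with sgDDX3 and 188 and 185 CPM with sgGal4 at day 14. At day 0 it had been 168 and 159.8 CPM with sgDDX3 and 162 and 175 CPM with sgGal4. Both sgDDX3 libraries lay above both sgGal4 libraries on days 3 and 14. The log2 differences were 0.41 ± 0.08 (SE, adjusted p = 0.00195) and 0.40 ± 0.08 (SE, adjusted p = 0.00261). At day 14 the difference was 0.26 without sgDDX3 replicate 1 and still passed; both RNA calls passed in every alternative run, including subtraction of the day 0 guide difference, an alternative added after seeing the data.

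In footprints HYOU1 was 363 and 351 CPM with sgDDX3 and 278 and 259 CPM with sgGal4 at day 3, and 334 and 328 CPM with sgDDX3 and 261 and 244 CPM with sgGal4 at day 14. The differences, 0.41 ± 0.09 (SE, adjusted p = 0.0242) and 0.39 ± 0.09 (SE, adjusted p = 0.0282), were about the size of those in RNA. The groups did not overlap on either day. The footprint calls were lost when any 1 library was left out or the day 0 difference was subtracted. At day 3 the values were then 0.36 with the day 0 difference subtracted, 0.39 without sgDDX3 day 3 replicate 1, 0.43 without sgDDX3 day 3 replicate 2, 0.44 without sgGal4 day 3 replicate 1 and 0.35 without sgGal4 day 3 replicate 2. At day 14 they were then 0.34 with the day 0 difference subtracted, 0.37 without sgDDX3 day 14 replicate 1, 0.40 without sgDDX3 day 14 replicate 2, 0.45 without sgGal4 day 14 replicate 1 and 0.33 without sgGal4 day 14 replicate 2.

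HSPA5, known as BiP, the main Hsp70 of the ER and the protein that holds the sensors inactive (ENSG00000044574, chr9:125234853-125241343), passed in footprints at day 3. Its footprints were 523 and 565 CPM with sgDDX3 and 411 and 371 CPM with sgGal4, without overlap, for a log2 difference of 0.48 ± 0.11 (SE, adjusted p = 0.0284). That call was lost at 0.44 with the day 0 difference subtracted, 0.41 without sgDDX3 day 3 replicate 2, 0.53 without sgGal4 day 3 replicate 1 and 0.39 without sgGal4 day 3 replicate 2. At day 14 the footprints were 547 and 554 CPM with sgDDX3 and 419 and 436 CPM with sgGal4, a difference of 0.36 ± 0.11 (SE, adjusted p = 0.0819) that did not pass in edgeR. It passed in DESeq2 and in edgeR without the low-count filter. In RNA it stood at 204 and 245 CPM with sgDDX3 and 195 and 184 CPM with sgGal4 at day 3 (0.24 ± 0.08, SE, adjusted p = 0.0627) and 242 and 229.8 CPM with sgDDX3 and 199.6 and 203 CPM with sgGal4 at day 14 (0.23 ± 0.08, SE, adjusted p = 0.0722), and neither difference passed. Without sgDDX3 replicate 1 at day 3, or sgDDX3 replicate 2 at day 14, the HSPA5 RNA difference did pass.

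HSP90B1, the ER Hsp90 known as GRP94, had RNA of 409.9 and 354 CPM with sgDDX3 and 327 and 318 CPM with sgGal4 at day 14, all sgDDX3 values being higher. The log2 difference was 0.25 ± 0.07 (SE, adjusted p = 0.0226). HSP90B1 no longer passed at 0.24 with the day 0 difference subtracted, 0.21 without the low-count filter, 0.14 without sgDDX3 day 14 replicate 1, 0.28 without sgGal4 day 14 replicate 1 and 0.23 without sgGal4 day 14 replicate 2. Its day 3 difference of 0.20 ± 0.07 (SE, adjusted p = 0.0602) did not pass in edgeR and passed in DESeq2. The median of the chaperones in the group was 0.24 at day 3 and 0.25 at day 14 in RNA, and 0.41 and 0.36 in footprints.

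**Figure D3:**
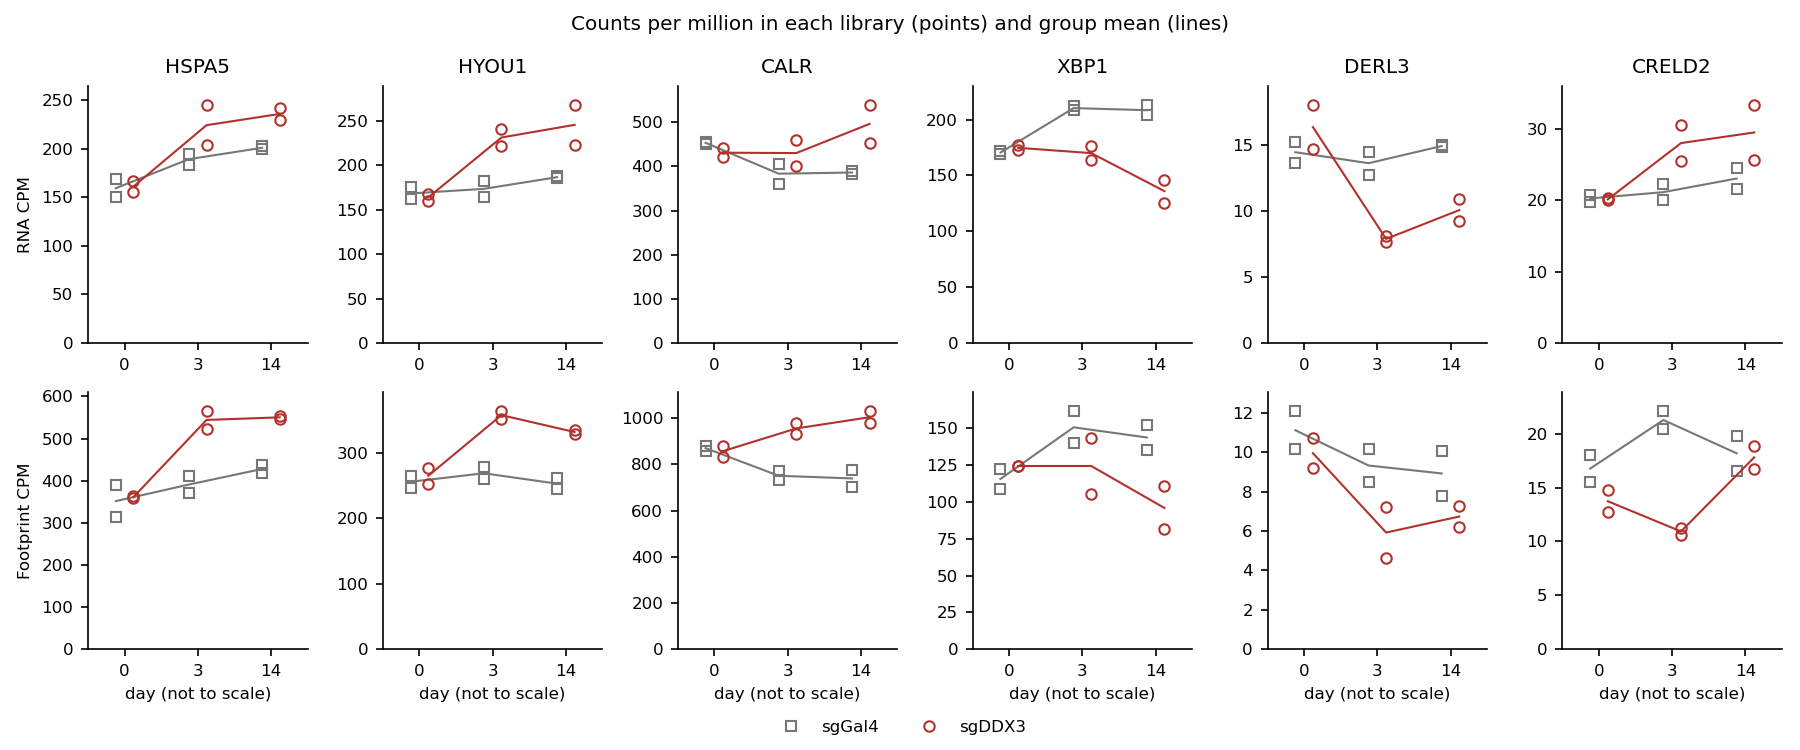
CPM in every library (points; lines join group means) of HSPA5, HYOU1, CALR, XBP1, DERL3 and CRELD2 by day (x axis, not to scale) for sgDDX3 and sgGal4; RNA in the top row, footprints in the bottom row. XBP1 RNA at day 14 and CRELD2 footprints at day 3 are lower in both sgDDX3 libraries than in both sgGal4 libraries.

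J-domain proteins hand substrates to BiP and stimulate its ATPase, and were grouped with their partners. DNAJC3 (P58IPK) was higher than with sgGal4 at day 14 and DNAJB11 (ERdj3) lower at day 3. DNAJB11 RNA at day 3 was 19.5 and 17.6 CPM with sgDDX3 and 28.2 and 25.5 CPM with sgGal4, with no overlap. The difference was -0.53 ± 0.10 (SE, adjusted p = 0.00103) and passed in every alternative but 1. With the day 0 difference subtracted it was -0.45 ± 0.14 (SE, adjusted p = 0.0859) and did not pass. At day 14 the DNAJB11 values were 23.0 and 25.2 CPM with sgDDX3 and 27.7 and 25.7 CPM with sgGal4, a difference of -0.14 ± 0.10 (SE, adjusted p = 0.437).

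DNAJC3 RNA was 73.5 and 89.3 CPM with sgDDX3 and 63.4 and 64.0 CPM with sgGal4 at day 14, where the lowest sgDDX3 value exceeded the highest sgGal4 value. At day 0 it had been 73.1 and 83.4 CPM with sgDDX3 and 80.2 and 80.6 CPM with sgGal4, so that at day 14 the control values were the ones further from those of day 0. The log2 difference was 0.35 ± 0.09 (SE, adjusted p = 0.0124), and it was 0.40 with the day 0 difference subtracted, 0.20 without sgDDX3 day 14 replicate 2, 0.36 without sgGal4 day 14 replicate 1 and 0.36 without sgGal4 day 14 replicate 2, where it did not pass. SDF2L1, which forms a complex with ER J-domain proteins, passed in footprints at day 14. The values were 192 and 180.2 CPM with sgDDX3 and 144 and 127 CPM with sgGal4, without overlap, for 0.46 ± 0.11 (SE, adjusted p = 0.0342). This was lost at 0.65 with the day 0 difference subtracted, 0.40 without sgDDX3 day 14 replicate 1, 0.49 without sgDDX3 day 14 replicate 2, 0.56 without sgGal4 day 14 replicate 1 and 0.36 without sgGal4 day 14 replicate 2. Its RNA difference at day 14 was 0.28 ± 0.11 (SE, adjusted p = 0.0824), and it passed without sgDDX3 replicate 2.

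Of the lectin chaperones, CALR (calreticulin), which with calnexin (CANX) binds glycoproteins on their way through folding, was higher with sgDDX3 than with sgGal4 in footprints on both days and in RNA at day 14. Its RNA was 400.4 and 460.4 CPM with sgDDX3 and 361 and 406 CPM with sgGal4 at day 3, which did not pass (0.17 ± 0.08, SE, adjusted p = 0.205), and 539 and 454 CPM with sgDDX3 and 390.2 and 382 CPM with sgGal4 at day 14 (0.36 ± 0.08, SE, adjusted p = 0.00483). The day 14 values did not overlap. The RNA call was lost at 0.23 without sgDDX3 day 14 replicate 1 and 0.35 without sgGal4 day 14 replicate 2.

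CALR footprints were 931 and 980.1 CPM with sgDDX3 and 732 and 769 CPM with sgGal4 at day 3, and 1030 and 978 CPM with sgDDX3 and 777 and 701 CPM with sgGal4 at day 14. The differences were 0.35 ± 0.09 (SE, adjusted p = 0.0489) and 0.44 ± 0.09 (SE, adjusted p = 0.0178), and the guides did not overlap on either day. At day 3 the call was lost at 0.37 with the day 0 difference subtracted, 0.34 with DESeq2 size factors, 0.29 without the low-count filter, 0.38 without sgDDX3 day 3 replicate 1, 0.30 without sgDDX3 day 3 replicate 2, 0.29 without sgGal4 day 3 replicate 1 and 0.37 without sgGal4 day 3 replicate 2. At day 14 it was lost at 0.46 with the day 0 difference subtracted, 0.39 without sgDDX3 day 14 replicate 1 and 0.36 without sgGal4 day 14 replicate 2. CANX was not called in any comparison between the guides, at 0.02 in RNA at day 14.

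Disulfide isomerases and oxidases form and shuffle the disulfide bonds of secreted proteins. At day 14, RNA of 5 of 8 tested members was higher with sgDDX3 than with sgGal4 (8.44% of all genes were): PDIA3, PDIA4, CRELD1, CRELD2 and ERO1B. All 8 differences were positive, with a median of 0.23 against -0.01 for all genes. At day 3 all 8 were again positive and 1, CRELD2, passed (median 0.17).

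PDIA4 RNA at day 14 was 197 and 183 CPM with sgDDX3 and 166 and 158 CPM with sgGal4, for 0.23 ± 0.07 (SE, adjusted p = 0.0389). PDIA3, the partner of the lectin chaperones, was 121 and 135 CPM with sgDDX3 and 111 and 106 CPM with sgGal4, for 0.24 ± 0.08 (SE, adjusted p = 0.0397). CRELD1 was 39.8 and 38.3 CPM with sgDDX3 and 30.2 and 31.1 CPM with sgGal4, for 0.35 ± 0.10 (SE, adjusted p = 0.025). In each of these the 2 groups were separated. PDIA4 no longer passed at 0.25 with the day 0 difference subtracted, 0.20 without the low-count filter, 0.18 without sgDDX3 day 14 replicate 1, 0.27 without sgGal4 day 14 replicate 1 and 0.19 without sgGal4 day 14 replicate 2. PDIA3 no longer passed at 0.30 with the day 0 difference subtracted, 0.20 without the low-count filter, 0.15 without sgDDX3 day 14 replicate 2, 0.28 without sgGal4 day 14 replicate 1 and 0.20 without sgGal4 day 14 replicate 2. CRELD1 no longer passed at 0.30 with the day 0 difference subtracted, 0.31 without the low-count filter, 0.32 without sgDDX3 day 14 replicate 1, 0.34 without sgGal4 day 14 replicate 1 and 0.37 without sgGal4 day 14 replicate 2. PDIA3 shares 659 bases of its annotated span with ELL3, and reads there cannot be told apart without knowing the strand setting of the counting.

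CRELD2, an ER protein with isomerase activity toward secreted proteins (ENSG00000184164, chr22:49918634-49927537), had more RNA and, at day 3, fewer footprints. RNA was 25.5 and 30.6 CPM with sgDDX3 and 22.3 and 20.0 CPM with sgGal4 at day 3, for 0.37 ± 0.12 (SE, adjusted p = 0.0399), and 33.4 and 25.7 CPM with sgDDX3 and 24.5 and 21.6 CPM with sgGal4 at day 14, for 0.38 ± 0.12 (SE, adjusted p = 0.0424). The guides were separated on both days. At day 3 the RNA call was lost at 0.38 with the day 0 difference subtracted, 0.26 without sgDDX3 day 3 replicate 2, 0.46 without sgGal4 day 3 replicate 1 and 0.31 without sgGal4 day 3 replicate 2. At day 14 it was lost at 0.39 with the day 0 difference subtracted, 0.34 without the low-count filter, 0.37 in DESeq2, 0.18 without sgDDX3 day 14 replicate 1, 0.46 without sgGal4 day 14 replicate 1 and 0.27 without sgGal4 day 14 replicate 2. ERO1B RNA counts at day 14 were 12 and 21 with sgDDX3 and 7 and 10 with sgGal4, and a log2 difference of 1.73 ± 0.54 (SE, adjusted p = 0.0343) rests on these few reads. It was 1.92 with the day 0 difference subtracted, 1.21 without sgDDX3 day 14 replicate 2 and 1.10 without sgGal4 day 14 replicate 2, where it did not pass.

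In the ERAD group OS9, a lectin that delivers glycoproteins to the ERAD ligase, was higher with sgDDX3 at day 14, while DERL3, a member of the Derlin family in the ERAD channel, was lower on both days. OS9 RNA was 136 and 132 CPM with sgDDX3 and 112 and 110.4 CPM with sgGal4, for 0.27 ± 0.07 (SE, adjusted p = 0.0166), with no overlap. It was 0.11 with the day 0 difference subtracted, 0.24 without the low-count filter, 0.25 without sgDDX3 day 14 replicate 1, 0.29 without sgGal4 day 14 replicate 1 and 0.26 without sgGal4 day 14 replicate 2, where it did not pass. DERL3 RNA was 7.66 and 8.08 CPM with sgDDX3 and 14.5 and 12.7 CPM with sgGal4 at day 3 and 10.9 and 9.22 CPM with sgDDX3 and 15.0 and 14.8 CPM with sgGal4 at day 14. Both sgDDX3 values were below both sgGal4 values each time.

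The DERL3 differences were -0.82 ± 0.14 (SE, adjusted p = 0.000307) and -0.56 ± 0.14 (SE, adjusted p = 0.0102). The day 3 call passed in every alternative run, and the day 14 call was lost at -0.46 without sgDDX3 day 14 replicate 2 and -0.58 without sgGal4 day 14 replicate 2. DERL3 overlaps SMARCB1, a chromatin remodelling gene, by 3507 bases of annotated span, so reads of the shared stretch cannot be told apart here. SMARCB1 RNA differed by 0.24 ± 0.08 (SE, adjusted p = 0.0508) at day 3 and 0.02 ± 0.08 (SE, adjusted p = 0.88) at day 14, and neither passed. HERPUD1, an ERAD scaffold and marker of the response, did not pass at -0.32 ± 0.13 (SE, adjusted p = 0.111) in RNA at day 14; it passed without the low-count filter and without sgDDX3 replicate 2. The ERAD group as a whole had a median of -0.03 at day 3 and -0.18 at day 14.

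Of the sensors and regulators, XBP1 (ENSG00000100219, chr22:28794560-28800569) had lower RNA with sgDDX3 than with sgGal4 on both days. Its counts cannot tell spliced from unspliced mRNA. RNA was 176 and 164 CPM with sgDDX3 and 208 and 212 CPM with sgGal4 at day 3, and 126 and 146 CPM with sgDDX3 and 213 and 204 CPM with sgGal4 at day 14. At day 0 it had been 177 and 173 CPM with sgDDX3 and 169 and 172 CPM with sgGal4, a log2 difference of 0.04 ± 0.07 (SE, adjusted p = 0.999). Both sgDDX3 libraries were below both sgGal4 libraries on each later day. The differences were -0.30 ± 0.07 (SE, adjusted p = 0.00814) and -0.62 ± 0.08 (SE, adjusted p = 1.47e-05). The day 3 call was lost at -0.34 with the day 0 difference subtracted, -0.25 without sgDDX3 day 3 replicate 2 and -0.29 without sgGal4 day 3 replicate 2, and the day 14 call passed in every alternative run, from -0.74 to -0.51.

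The 2 sensors in the list, ERN1 and ATF6, and the transcription factor CREB3L2 were on the same side at day 14 without passing: ERN1 -0.34 ± 0.12 (SE, adjusted p = 0.0512), ATF6 -0.27 ± 0.10 (SE, adjusted p = 0.0676) and CREB3L2 -0.12 ± 0.09 (SE, adjusted p = 0.391). ERN1 and ATF6 passed without the low-count filter, and these 3 genes passed without sgDDX3 replicate 2. All 4 tested members of the group were negative, with a median of -0.31. XBP1 footprints at day 14 were 81.3 and 111 CPM with sgDDX3 and 152 and 135 CPM with sgGal4, also separated, and the difference of -0.59 ± 0.15 (SE, adjusted p = 0.0556) did not pass with all libraries in edgeR. It passed in DESeq2, in edgeR without the low-count filter and in edgeR without sgDDX3 replicate 2.

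SEC61A1 forms the translocon channel, and SSR1 and SSR2 are subunits of the associated TRAP complex. SEC61A1 RNA at day 3 was 214 and 209 CPM with sgDDX3 and 188 and 181 CPM with sgGal4, for 0.19 ± 0.07 (SE, adjusted p = 0.0499), just inside the threshold, and it was 0.21 with the day 0 difference subtracted, 0.20 with DESeq2 size factors, 0.19 without the low-count filter, 0.18 without sgDDX3 day 3 replicate 1, 0.21 without sgDDX3 day 3 replicate 2, 0.22 without sgGal4 day 3 replicate 1 and 0.17 without sgGal4 day 3 replicate 2, where it did not pass. The span of SEC61A1 overlaps RUVBL1 by 6899 bases. At day 14 the SEC61A1 difference was 0.06 ± 0.07 (SE, adjusted p = 0.607). The group had a median of -0.03 in RNA at day 14. 

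The other members tested, 19 in number, did not pass between the guides on a single day in RNA, footprints or translational efficiency. Besides those named above they were the chaperone partners DNAJB9, DNAJC10 and MANF, the isomerases P4HB and PDIA6, the oxidase ERO1A, the ERAD genes EDEM1, SEL1L, SYVN1, DERL1 and DERL2, and SEC61B of the translocon. Their RNA differences ran from -0.14 (CREB3L2) to 0.27 (ERO1A) at day 3 and from -0.34 (ERN1) to 0.22 (ERO1A) at day 14. In footprints they ran from -0.05 (DERL2) to 0.32 (DNAJB9) at day 3 and from -0.52 (ERN1) to 0.24 (MANF) at day 14. EDEM1 clips mannose from misfolded glycoproteins, SEL1L and SYVN1 form the core ERAD ligase, and P4HB and PDIA6 are abundant isomerases.

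In footprints, 3 of 34 members were higher at day 3 (1.55% of all genes) and 1 lower (2.25%); 3 were higher at day 14 (2.11%) and none lower (1.29%). Those higher were HSPA5, HYOU1 and CALR, then HYOU1, CALR and SDF2L1. For the lower direction at day 14, DESeq2 called XBP1, and 5 members in all. The median difference was 0.11 at day 3 and 0.07 at day 14, against 0.02 and 0.00 for all genes. Of the 34 members, 26 and 21 were positive. An unadjusted p under 0.05 was reached by 3757 and 3418 of all 19780 genes, and by 14 and 13 members. The counts were 3, 1, 0 and 1 at day 3, and 0, 2, 1 and 0 at day 14, without sgDDX3 replicate 1, sgDDX3 replicate 2, sgGal4 replicate 1 and sgGal4 replicate 2.

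At day 3 CRELD2 passed in both assays, in opposite directions. Its footprints at day 3 were 10.6 and 11.3 CPM with sgDDX3 and 22.1 and 20.5 CPM with sgGal4, without overlap, for -0.96 ± 0.16 (SE, adjusted p = 0.0062). That call was lost at -0.69 with the day 0 difference subtracted and -0.93 without sgGal4 day 3 replicate 1. Footprints per RNA were 0.390 with sgDDX3 and 1.01 with sgGal4 at day 3; at day 0 they were 0.682 and 0.827, and at day 14 0.603 and 0.788. The difference of the ratios at day 3 was -1.36 ± 0.20 (SE, adjusted p = 7.45e-05) on the log2 scale and passed in all 12 alternatives, from -1.49 to -1.24. Subtraction of the day 0 difference was not run for the ratios. At day 14 the difference of the ratios was -0.39 ± 0.19 (SE, adjusted p = 0.417), which did not pass.

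In translational efficiency at day 3, CRELD2 was 1 of 34 members to pass, on the lower side, and no other member passed (4.87% of all genes were lower and 0.532% higher). At day 14 none of 34 passed, with 0.39% and 1.33% of all genes higher and lower. An unadjusted p under 0.05 was reached by 1 member and by 1807 of 14853 genes. DESeq2 called 0 members. The TRAP subunits SSR1 (0.32 ± 0.11, SE, adjusted p = 0.0883) and SSR2 (0.32 ± 0.12, SE, adjusted p = 0.141) did not pass on the higher side at day 3. The plot of footprint against RNA differences sets CRELD2 beside the others.

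**Figure D4:**
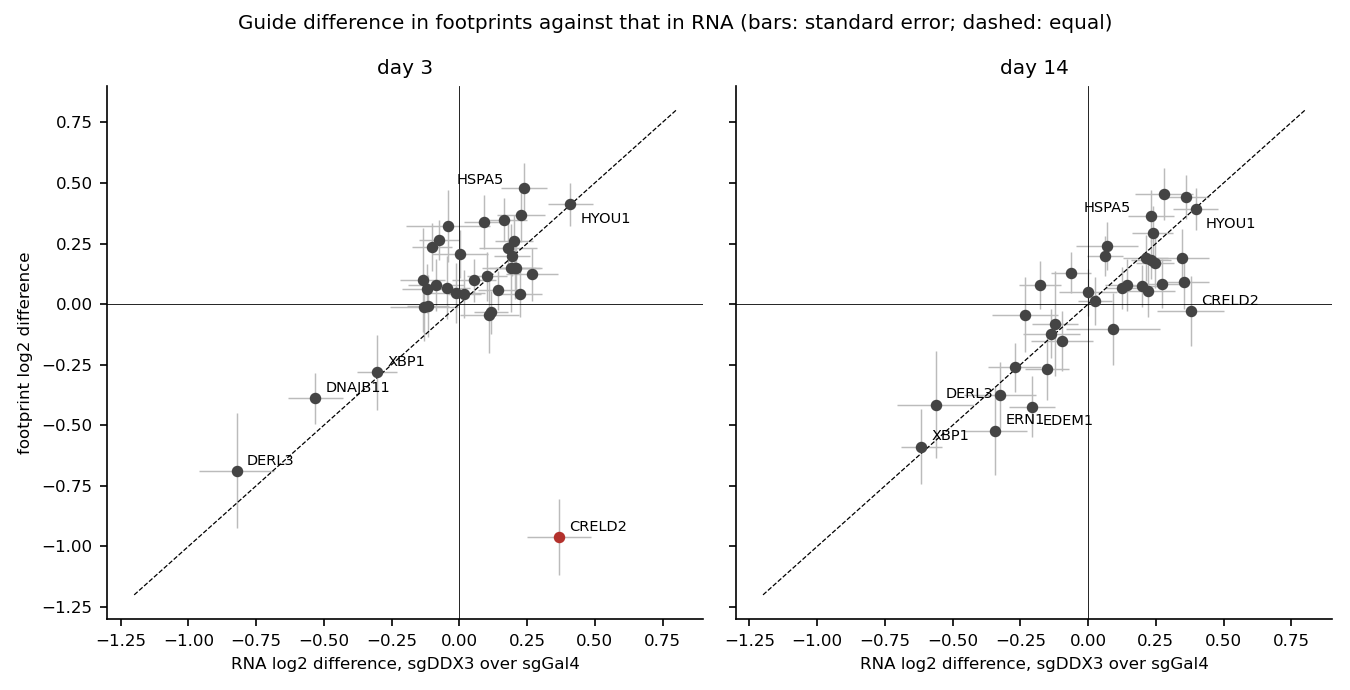
Log2 difference of sgDDX3 over sgGal4 in footprints (y axis) against that in RNA (x axis) for the members tested in both, at day 3 and day 14; the line marks equal values and red marks the member that passed in translational efficiency. CRELD2 at day 3 lies far below the line, with 0.37 in RNA and -0.96 in footprints.

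Between day 3 and day 14 no member passed a test of the change in its guide difference with edgeR. In RNA 0 of 35 passed (0.164% of all genes) and in footprints 0 of 34 (0.126%). An unadjusted p under 0.05 was reached by 5 members in each, and by 1447 of 18287 and 1394 of 19780 genes. DESeq2 called 0 members. Without sgDDX3 day 14 RNA replicate 2 the RNA test called 2, SDF2L1 and XBP1.

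Over time the control cells themselves changed. With sgGal4, RNA of OS9, ERN1 and XBP1 was higher at day 3 than at day 0 (3 of 35; 3.41% of all genes) and ERO1A, an ER oxidase, was lower (1; 2.27%). The differences were 0.28, 0.39, 0.30 and -0.36 (log2). None of these 4 passed without day 0 replicate 1, day 0 replicate 2 or day 3 replicate 1, and 2 passed without day 3 replicate 2; ERN1 was 0.12 without day 3 replicate 1. At day 14, HSPA5, OS9, ERN1 and XBP1 were higher (4; 7.7%) and DNAJC10, SSR1, DNAJC3 and ERO1A lower (4; 8.55%). The sgGal4 differences were 0.34 for HSPA5, 0.29 for XBP1, -0.34 for DNAJC3 and -0.57 for ERO1A, and ERO1A alone passed in every alternative. Of the 8, 2 passed without day 0 replicate 1, and 3 without each of the others; the values then lay between 0.24 and 0.55 for the 4 higher genes and between -0.61 and -0.23 for the 4 lower.

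With sgDDX3, 6 members were higher at day 3 than at day 0 (11.1% of all genes) and 2 lower (9.42%). HSPA5 (0.47), HYOU1 (0.49), SEC61A1, OS9, ERN1 and CRELD2 rose, and DNAJB11 (-0.44) and DERL3 (-1.08) fell. At day 14, 8 were higher (13.4%) and 7 lower (12.8%). HSPA5 rose by 0.55, HYOU1 by 0.58, OS9 by 0.50, SDF2L1 by 0.47 and CRELD2 by 0.55, with ERO1B, CRELD1 and SYVN1. On the lower side, XBP1 was -0.36, ATF6 -0.38, EDEM1 -0.38 (-0.24 without day 14 replicate 1), HERPUD1 -0.40, DERL3 -0.71 and ERO1A -0.45, with SSR1. Without day 0 replicate 1, day 0 replicate 2, the later replicate 1 or the later replicate 2, the counts were 5, 3, 9 and 7 at day 3 and 13, 9, 9 and 19 at day 14. 

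Several of these calls with sgDDX3 were lost in alternative runs, most often with 1 library left out, which leaves its group without a replicate. At day 3, SEC61A1 no longer passed at 0.26 without sgDDX3 day 0 replicate 1, 0.22 without sgDDX3 day 3 replicate 1 and 0.22 without sgDDX3 day 0 replicate 2, and DNAJB11 at -0.37 without sgDDX3 day 0 replicate 2. CRELD2 did not at 0.47 without sgDDX3 day 0 replicate 1, 0.44 without sgDDX3 day 0 replicate 2 and 0.34 without sgDDX3 day 3 replicate 2. OS9 did not at 0.21 without the low-count filter, 0.19 without sgDDX3 day 0 replicate 1, 0.24 without sgDDX3 day 3 replicate 1, 0.26 without sgDDX3 day 0 replicate 2 and 0.21 without sgDDX3 day 3 replicate 2, nor ERN1 at 0.33 in DESeq2, 0.29 without sgDDX3 day 0 replicate 1, 0.23 without sgDDX3 day 3 replicate 1 and 0.37 without sgDDX3 day 0 replicate 2. At day 14, SDF2L1 no longer passed at 0.24 without sgDDX3 day 14 replicate 1 and 0.39 without sgDDX3 day 0 replicate 2, CRELD2 at 0.35 without sgDDX3 day 14 replicate 1 and CRELD1 at 0.34 without sgDDX3 day 0 replicate 2. ERO1B did not at 1.92 without sgDDX3 day 0 replicate 2 and 1.83 without sgDDX3 day 14 replicate 2, nor SYVN1 at 0.24 without the low-count filter, 0.23 without sgDDX3 day 14 replicate 1 and 0.21 without sgDDX3 day 0 replicate 2. On the lower side, HERPUD1 did not pass at -0.39 in DESeq2, -0.43 without sgDDX3 day 0 replicate 1, -0.17 without sgDDX3 day 14 replicate 1 and -0.38 without sgDDX3 day 0 replicate 2, ATF6 at -0.24 without sgDDX3 day 14 replicate 1 and SSR1 at -0.21 without sgDDX3 day 0 replicate 1, -0.17 without sgDDX3 day 14 replicate 1 and -0.28 without sgDDX3 day 0 replicate 2. HSPA5, HYOU1 and DERL3 passed in every alternative on both days, and OS9, ERO1A, EDEM1 and XBP1 at day 14.

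The change from day 0 was set against that in the control guide, the same subtraction of day 0. In RNA, 2 of 35 members differed at day 3 (3.7% of all genes), HYOU1 and DERL3. At day 14, 5 differed (4.46%): HYOU1 0.43 ± 0.12 (SE, adjusted p = 0.0391), CALR 0.44 ± 0.12 (SE, adjusted p = 0.0357), ERN1 -0.59 ± 0.16 (SE, adjusted p = 0.0428), DERL3 -0.76 ± 0.19 (SE, adjusted p = 0.0245) and XBP1 -0.65 ± 0.11 (SE, adjusted p = 0.000994). From day 0 to day 14, XBP1 rose with sgGal4 and fell with sgDDX3. In footprints 0 of 34 passed on either day with edgeR, against 0.121% and 0.106% of all genes. An unadjusted p under 0.05 was reached by 7 and 8 members, and by 2210 and 1884 of all 19780 genes. DESeq2 was not run.

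The 11 members with an ERSE or ERSE-II, such as those printed above, were set beside the 21 tested members of the promoter table without either. With an element, 5 had higher RNA at day 14 and 1 lower (median 0.25), against 4 and 0 (median 0.06). The shares over all genes tested were 8.44% higher and 6.18% lower. ERO1B, whose counts were low, is among the 5. At day 3 the medians were 0.17 and 0.11. In footprints 3 were higher at day 14 among the 10 tested with an element and 0 among the others (2.11% of all genes), with medians of 0.12 and 0.07. HYOU1, HSP90B1, CALR and CRELD2 carry an element and had higher RNA with sgDDX3 than with sgGal4 at day 14, and XBP1 carries one and had lower. The difference between the 2 sets was not tested.

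A further 96 genes of the same pathways were chosen as lists by function, with earlier results of these data known. Of these, 95 could be tested. The RNA of 11 was higher and of 8 lower at day 14, and of 9 higher and 5 lower at day 3. Over all genes 8.44% were higher and 6.18% lower at day 14, and 7.68% and 6.39% at day 3. The 9 genes of the PERK arm held 5 of the 8 that were lower at day 14, ATF3, DDIT3, CHAC1, TRIB3 and ATF4, with a median of -0.41. ATF4 is the transcription factor that PERK signalling raises, and DDIT3 (CHOP) and TRIB3 are its targets. TRIB3 differed by -0.98 ± 0.13 (SE, adjusted p = 2.21e-05), DDIT3 by -0.66 ± 0.12 (SE, adjusted p = 0.000721) and ATF4 by -0.41 ± 0.07 (SE, adjusted p = 0.000559) on the log2 scale, and all 3 passed in every alternative run; DDIT3 was -0.42 without sgDDX3 replicate 1. These are RNA values. In footprints at day 14 ATF4 did not pass, at -0.17 ± 0.10 (SE, adjusted p = 0.409). TRIB3 (-0.87 ± 0.18, SE, adjusted p = 0.0182) and DDIT3 (-0.71 ± 0.15, SE, adjusted p = 0.0189) passed there, though not in every alternative. ATF4 translational efficiency was 0.24 ± 0.13 (SE, adjusted p = 0.461) and did not pass.

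Among the other lists, QSOX1, a disulfide oxidase, differed by 0.52 ± 0.09 (SE, adjusted p = 0.000344) at day 14. Genes whose proteins act on or bind N-glycans, MOGS, UGGT1 and MLEC, were higher at day 14, with 0.45 ± 0.10 (SE, adjusted p = 0.00414), 0.34 ± 0.07 (SE, adjusted p = 0.00167) and 0.34 ± 0.07 (SE, adjusted p = 0.00247). MOGS at day 14 was 0.29 without sgDDX3 replicate 1, UGGT1 0.30 without sgGal4 replicate 2 and MLEC 0.29 without sgGal4 replicate 2, and none of these passed. The lists of degradation genes (5 of 20 higher at day 14), of folding and oxidation genes (3 of 25) and of glycosylation genes (3 of 16) held the 11 that were higher, with 8.44% of all genes. In translational efficiency 11 of the 95 genes were lower at day 3 and none higher, against 4.87% and 0.532% of all genes.

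FKBP9, a prolyl isomerase of the ER, had 0.47 ± 0.08 (SE, adjusted p = 0.000588) in RNA and -0.96 ± 0.14 (SE, adjusted p = 3.4e-05) in translational efficiency at day 3. The translational efficiency call passed in all 12 alternatives, which do not include subtraction of the day 0 difference.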

How the data were processed

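K562 libraries of cytosolic RNA and ribosome footprints were analysed from 2 tables of whole-number counts per gene, which the authors deposited (raw counts, not normalized). The tools that the submitters' processing notes name are STAR 2.7.5a, Bowtie2 2.4.1, cutadapt 3.4 and DESeq2, with the build GRCh38. No source used here gives the annotation or the strand setting of the counting; per the labels' protocols the RNA library kit was directional. Of 58037 rows, 45 chromosome Y copies of pseudoautosomal genes were left out.

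Counts were tested with edgeR 4.0.16 (R 4.3.3), using trimmed-mean normalization within an assay, filterByExpr with a minimum count of 10, the quasi-likelihood F-test over the 12 libraries of the assay and Benjamini-Hochberg adjustment over all genes tested (18287 in RNA and 19780 in footprints). Translational efficiency was the guide by assay interaction in a joint fit of all 24 libraries (14853 genes). Standard errors are the log2 difference divided by the square root of F. Code was tested on simulated data. Alternatives were DESeq2 1.42.0, its size factors in edgeR, no low-count filter, a replicate block, leaving out each library and, added after seeing the data, subtraction of the day 0 difference. The subtraction was run for RNA and footprints only, not for translational efficiency. Total counts per library ranged from 6223963 to 43256563, and intervals on them would cover counting error only.

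Members and pathway lists were chosen with earlier results of these data known. All 36 members could be named; values in every library are given for members that passed between the guides at day 3 or 14, and up to 3 genes of each further list are named, those with the smallest p in RNA at day 14. Other genes are named only as members of a count. Promoter windows were matched by symbol, and PDIA3, DERL1 and DERL3 had none. Some items are not reported here.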

Additional observations from a re-analysis of the deposited data

Results flagged for a closer look

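In RNA, the change from day 0 differed between sgDDX3 and sgGal4 for 2 members at day 3 and 5 at day 14, by the test of the difference itself (edgeR, Benjamini-Hochberg adjustment over all genes). At day 3 the log2 change with sgDDX3 less that with sgGal4 was 0.4473 for HYOU1 (adjusted p = 0.0372) and -1.0188 for DERL3 (adjusted p = 0.00277). At day 14 it was 0.4345 for HYOU1 (adjusted p = 0.0391), 0.4354 for CALR (adjusted p = 0.0357), -0.5858 for ERN1 (adjusted p = 0.0428), -0.7595 for DERL3 (adjusted p = 0.0245) and -0.6517 for XBP1 (adjusted p = 0.000994). HYOU1 and DERL3 differed on both days, in the same direction each time. Over all genes tested, 676 of 18287 genes passed at day 3 and 816 at day 14.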

How the results depend on the processing

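Of 61 member calls in the comparisons run, 17 passed in every alternative other than subtraction of day 0 and 0 reversed. With 2 libraries a group, most calls rest on both replicates. Leaving out 1 library moved the number of members called to 3 to 6 in RNA at day 3 (6 with all libraries), 2 to 17 at day 14 (12), 0 to 3 in footprints at day 3 (4), 0 to 2 at day 14 (3) and 1 to 2 in translational efficiency at day 3 (1). For the change in the guide difference from day 3 to day 14 in RNA it was 0 to 2 (0). Over time in RNA it was 0 to 2 with sgGal4 at day 3 (4), 2 to 3 at day 14 (8), 3 to 9 with sgDDX3 at day 3 (8) and 9 to 19 at day 14 (15). With the day 0 guide difference subtracted, an alternative added after seeing the data, the counts were 2 in RNA at day 3, 5 at day 14, and 0 in footprints on both days. In footprints at day 14, 6 members passed without the low-count filter and 5 in DESeq2; without that filter 1, CRELD2, passed for the change between days in footprints. With the replicate number as a block, 5 and 9 members passed in RNA at days 3 and 14, 3 and 3 in footprints, 1 in translational efficiency at day 3, 3 and 8 over time with sgGal4 and 7 and 15 with sgDDX3. The replicate numbers share no stated source. The difference of replicate 1 less replicate 2 in log2 CPM was taken within each guide and correlated over genes between the guides. At days 0, 3 and 14 the correlations were -0.0191, 0.0444 and 0.0601 in RNA and 0.0138, 0.0793 and -0.0406 in footprints. The block therefore served only as an alternative. Calls lost with it are not listed gene by gene above. Between the guides they were PDIA3, PDIA4 and CRELD2 in RNA at day 14, SEC61A1 in RNA at day 3 and CALR in footprints at day 3. Over time they were OS9 with sgDDX3 and ERN1 with sgGal4, both at day 3. Depth limits ERO1B and WFS1, whose counts were low.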
